A study of Mus musculus with 2 samples.

Results

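The 10 genes described here make, activate, receive or restrain transforming growth factor beta (TGF-beta) signals: Tgfb1, Itgb8, Lrrc32, Itgae, Tgfbr1, Tgfbr2, Smad3, Smad7, Ski and Skil. They were taken as listed symbols, and all 10 were among the 32285 features of both matrices. They were read in regulatory T (Treg) cells, CD4 conventional T cells, CD8 T cells, natural killer (NK) cells and myeloid cells. The material was KO and WT immune cells from B16-F0 tumours, a transplantable mouse melanoma, sorted as CD45+ DAPI- cells and profiled by 10x Genomics 3' single-cell RNA sequencing. Each genotype had 1 library, so no test between genotypes could be made and no p-value is given. The labels name neither the deleted gene nor the age, strain or number of the mice, so no gene could serve to check the genotype, and what the mice share beyond the tumour is not stated.

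TGF-beta is secreted in a latent form that a second protein must release. Treg cells hold latent TGF-beta on their surface through GARP, the product of Lrrc32, and the integrin subunit encoded by Itgb8, paired with the alpha V subunit, frees it. The active ligand binds the type II receptor (Tgfbr2), which recruits the type I receptor (Tgfbr1), and the signal runs through Smad2 and Smad3 to the nucleus. Smad7 is induced by the pathway and blocks the receptors, while Ski and Skil encode corepressors that bind the Smads. Itgae encodes CD103, the alpha E integrin subunit, which TGF-beta induces on T cells and which also marks a type of conventional dendritic cell (cDC1).

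Cells were assigned by marker genes, none of which is among the 10. Treg cells numbered 378 in KO and 158 in WT, CD4 conventional cells 798 in KO and 489 in WT, CD8 cells 2279 in KO and 1519 in WT, NK cells 2096 in KO and 1176 in WT, and myeloid cells 1959 in KO and 1227 in WT. Myeloid cells were further divided into 379 KO and 246 WT macrophages, 1139 KO and 618 WT monocytes, 162 KO and 123 WT cDC1, and 207 KO and 167 WT cDC2. The libraries had 112544655 UMIs (unique molecular identifiers, each standing for 1 captured RNA molecule) in KO and 98438084 in WT, and shared 42 cell barcodes. The labels call the cells tumour-infiltrating Treg cells, yet the Treg gate held 3.40% of KO and 1.42% of WT cells. Gated Treg cells had Ikzf2, the Helios factor typical of Treg cells, at 826 CPM in KO and 869 CPM in WT. Ikzf2 is itself 1 of the 5 markers of the gate, so the gate partly sets its level and it gives no separate support for Treg identity. Foxp3, the lineage-defining factor and another optional marker of the gate, was at 31.6 CPM in KO and 148 CPM in WT Treg cells. A Foxp3 UMI was present in 23.5% of KO against 53.2% of WT Treg cells.

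Levels are in CPM: the UMIs of a gene summed over the cells of a class in 1 library and scaled by all UMIs of that sum, so that every class and library has the same total. They carry an exact Poisson 95% interval. Ratios are log2 of KO over WT CPM with an exact 95% interval. Both intervals cover counting error only and leave out the variation between mice, of which nothing is known here. They treat each UMI as independent, so variation between the cells of a class is left out as well. In WT Treg cells, for example, 1 cell held 14.9% of the Itgae UMIs. A gene was called higher or lower when it had at least 20 UMIs over both libraries, differed by at least 1.5-fold and had an interval that excluded no difference. The rule looks only at size and tests nothing.

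The members that passed the rule in at least 1 of the 5 main classes were Itgae, Itgb8, Lrrc32 and Tgfbr1. The share of all genes that passed in at least 1 class was not counted, so members are compared with all genes class by class only. In KO Treg cells 2 of the 10 were lower, Itgae and Itgb8, and none was higher, in cells where 2.66% of the 9390 measured genes were higher and 2.78% lower. In KO CD8 cells 1 of 10 was lower, Itgae, and 1 was higher, Lrrc32, where 4.41% of 12092 measured genes were lower and 6.79% higher. In KO myeloid cells 1 of 9 was lower, Tgfbr1, where 4.07% of 12150 measured genes were lower and 2.49% higher. None of the 8 members measured in CD4 conventional cells passed, where 5.28% of 9680 genes were higher and 1.89% lower. None of the 8 in NK cells passed either, where 2.24% of 10959 genes were higher and 1.63% lower.

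**Figure D1:**
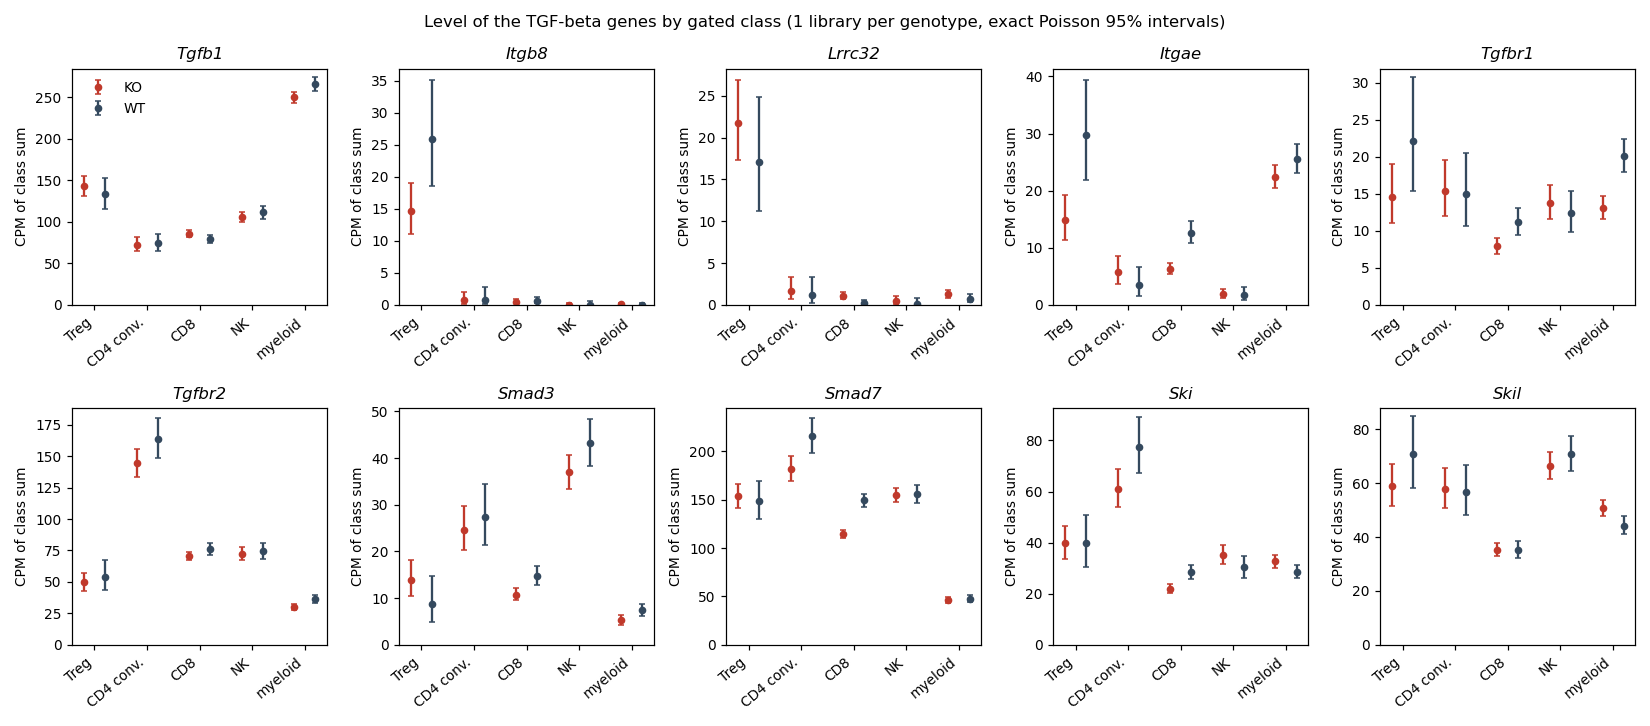
Level of each of the 10 genes in the 5 classes, as CPM of the class sum on a linear axis that starts at 0, with exact Poisson 95% intervals; KO is red and stands left of WT in dark blue. Itgb8 and Lrrc32 stand high in Treg cells and near 0 elsewhere, Tgfb1 is highest in myeloid cells, and Tgfbr2 and Smad7 are highest in CD4 conventional cells in both libraries.

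Itgb8 (ENSMUSG00000025321, GRCm38 chromosome 12, 119158022 to 119238802, minus strand) was counted mainly in Treg cells. It had 14.6 CPM in KO Treg cells, from 56 UMIs in 43 of 378 cells, and 25.9 CPM in WT Treg cells, from 41 UMIs in 26 of 158 cells. The log2 ratio was -0.82 (-1.43 to -0.20), so Itgb8 was lower in KO Treg cells. Against CD4 conventional cells of the same library, the Treg level was 21.2-fold higher in KO (6.88 to 106) and 33.7-fold higher in WT (8.75 to 288). No Itgb8 UMI was found in NK cells or in B cells of either library, and in B cells that allows a share of cells with a UMI of up to 0.714% in KO (0 of 420 cells) and 0.0861% in WT (0 of 3485 cells). That limit is on counted UMIs at medians of 3447 UMIs per cell in KO and 3329 in WT, not on cells that express the gene. T cells with neither CD4 nor CD8 UMIs had 18 Itgb8 UMIs in KO and 7 in WT, and the Treg level was 6.61-fold theirs in KO (3.83 to 11.9) and 22.2-fold in WT (9.88 to 58.7). That class rests on absent UMIs, so it can hold cells whose Cd4 was not counted. It had 55 Foxp3 UMIs in KO and 142 in WT, in 3.08% of KO and 4.92% of WT cells. How many Treg cells it holds was not tested.

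The Itgb8 ratio was farther from 0 in cycling Treg cells, here those with a UMI of Mki67 or Top2a, than in the rest, with overlapping intervals. In cycling Treg cells Itgb8 had 11.5 CPM in KO and 25.7 CPM in WT, a log2 ratio of -1.16 (-1.98 to -0.34). In the other Treg cells it had 20.1 CPM in KO and 26.2 CPM in WT, with a ratio of -0.38 (-1.36 to 0.66) that did not pass the rule. Cycling cells made up 43.4% of KO and 44.9% of WT Treg cells, with overlapping intervals of 38.3% to 48.6% in KO and 37.0% to 53.0% in WT. Itgb8 also missed the rule when a Foxp3 UMI was required for the Treg gate (-0.75, -1.71 to 0.17) and when joint clusters replaced the gates (-0.39, -0.94 to 0.18). With every cell weighted alike the Itgb8 ratio was -0.43, short of 1.5-fold. In cells thinned to 2000 UMIs Itgb8 passed with a ratio of -1.83 (-3.32 to -0.41), from a UMI in 7 of 371 KO (1.89%) and 10 of 157 WT Treg cells (6.37%).

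Lrrc32 (ENSMUSG00000090958, GRCm38 chromosome 7, 98489283 to 98502181, plus strand) shared the Treg pattern and did not pass the rule in Treg cells. It had 21.7 CPM in KO Treg cells (83 UMIs in 54 cells) and 17.0 CPM in WT Treg cells (27 UMIs in 22 cells). The log2 ratio was 0.35 (-0.29 to 1.03), with an interval that overlaps that of Itgb8. A UMI was present in 14.3% of KO and 13.9% of WT Treg cells, at medians of 6205 UMIs per cell in KO and 6581 in WT, and in no B cell of either library. The Treg level was 13.4-fold above that of CD4 conventional cells in KO (6.24 to 34.5) and 14.8-fold above it in WT (4.55 to 76.2). The distance to T cells with neither CD4 nor CD8 UMIs, a class that also held Foxp3 UMIs, was smaller. They held 46 KO and 30 WT UMIs, and the Treg level was 3.83-fold theirs in KO (2.64 to 5.62) and 3.42-fold in WT (1.95 to 5.95). A UMI of both Itgb8 and Lrrc32 was found in 7 of 378 KO and 7 of 158 WT Treg cells.

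In CD8 and myeloid cells Lrrc32 was sparse. In KO CD8 cells it had 27 UMIs in 24 of 2279 cells, and in WT CD8 cells 3 UMIs in 2 of 1519 cells, a log2 ratio of 2.29 (0.59 to 4.66). That call was not kept without cycling cells (1.91, 0.07 to 4.35, with 17 UMIs in all, under the minimum), without resting cells (1.62, -0.11 to 4.01) or with joint clusters in place of gates (0.64, -0.23 to 1.58). In monocytes 12 KO cells held 22 UMIs and 2 WT cells held 2, a ratio of 2.73 (0.71 to 5.87), which was not kept without the 1 cell holding most UMIs in each library, where the UMIs fall under the minimum, or with the highest doublet scores removed (2.24, 0.16 to 5.41). Over all myeloid cells Lrrc32 had 27 KO and 12 WT UMIs and did not pass (0.74, -0.29 to 1.85). Macrophages had 1 KO and 4 WT UMIs, cDC1 1 KO and 6 WT, and cDC2 3 KO and 0 WT, all under the minimum. In cells thinned to 2000 UMIs, 0.220% of KO and 0.0661% of WT CD8 cells had a Lrrc32 UMI, from 5 KO and 1 WT cells.

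**Figure D2:**
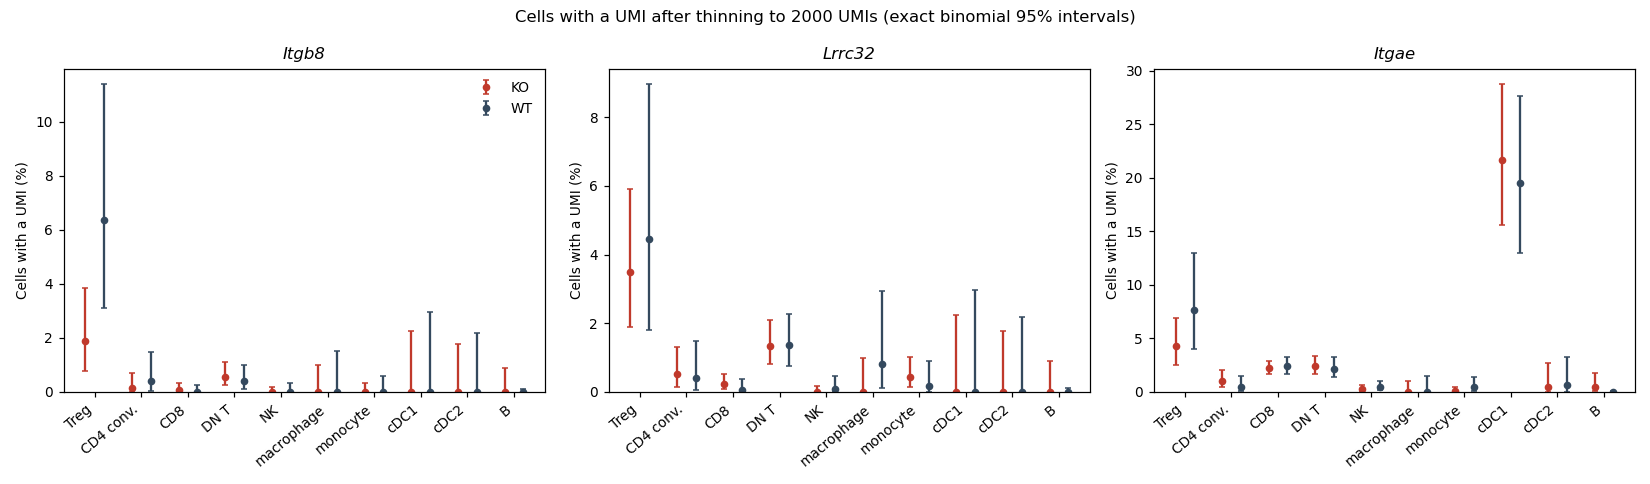
Share of cells with a UMI of Itgb8, Lrrc32 or Itgae after each cell was thinned to 2000 UMIs, in percent of cells with exact binomial 95% intervals, KO red and left of WT. Treg cells have the highest values for Itgb8 and Lrrc32, and cDC1 stand highest for Itgae with 21.6% in KO and 19.5% in WT.

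Itgae (ENSMUSG00000005947, GRCm38 chromosome 11, 73090583 to 73147446, plus strand) was lower in both KO Treg and KO CD8 cells. In Treg cells it had 14.9 CPM in KO (57 UMIs in 39 of 378 cells) and 29.7 CPM in WT (47 UMIs in 27 of 158 cells). The log2 ratio was -0.99 (-1.58 to -0.41), and the Poisson intervals of the levels did not overlap. The ratio was -1.06 (-1.87 to -0.23) in cycling and -0.97 (-1.84 to -0.08) in the other Treg cells. Treg cells with a Foxp3 UMI had 16.4 CPM in KO and 31.3 CPM in WT, and those without one 14.4 CPM in KO and 27.2 CPM in WT. Over 12 alternative settings the ratio ran from -1.07 to -0.86. The rule was missed only in cells thinned to 2000 UMIs, at -0.90 (-1.95 to 0.18), where 4.31% of KO (16 of 371) and 7.64% of WT Treg cells (12 of 157) had a UMI.

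In CD8 cells Itgae had 6.33 CPM in KO (159 UMIs in 109 cells) and 12.6 CPM in WT (173 UMIs in 102 cells), a log2 ratio of -1.0 (-1.32 to -0.68). Here the ratio differed with cell state. Cycling CD8 cells had 2.78 CPM in KO and 7.83 CPM in WT, a ratio of -1.50 (-2.14 to -0.85). CD8 cells that were not cycling had 11.7 CPM in KO and 16.0 CPM in WT, a ratio of -0.45 (-0.82 to -0.08) that fell short of 1.5-fold. Resting CD8 cells, which carry markers of circulating T cells and no effector marker, had 11.0 CPM in KO and 11.8 CPM in WT, a ratio of -0.11 (-0.78 to 0.55).

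The mix of states differed between the libraries, and depth differed with it. Cycling cells were 35.1% of KO and 25.7% of WT CD8 cells, at medians of 15133 UMIs per cell in KO and 10288.5 in WT. Resting cells were 17.4% of KO and 36.8% of WT CD8 cells. A class sum weights cells by their UMIs, so cycling cells count for more of it. With every cell weighted alike the Itgae ratio in CD8 cells was -0.52, and in cells thinned to 2000 UMIs it was -0.24 (-0.83 to 0.35), with a UMI in 2.20% of KO and 2.38% of WT cells. On both scales the CD8 ratio was nearer to 0 than over class sums, and the thinned interval spans no difference. Immunoglobulin and other B-cell RNA, which free RNA can bring into any droplet, was 102 CPM in KO and 178 CPM in WT CD8 cells and 157 CPM in KO and 284 CPM in WT Treg cells, with all 7 listed genes detected in both CD8 sums and in WT Treg cells and 6 of 7 in KO Treg cells. B cells had Itgae at 2.48 CPM in KO (5 UMIs) and 0.484 CPM in WT (6 UMIs). The part of B-cell RNA in the result was not tested.

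**Figure D3:**
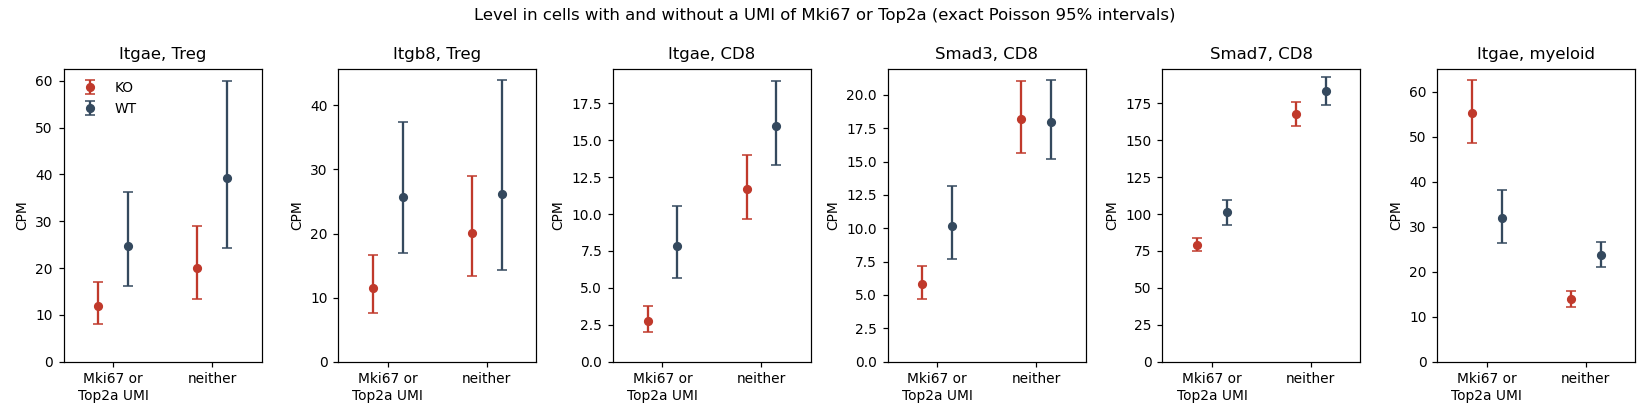
Level of Itgae and Itgb8 in Treg cells, of Itgae, Smad3 and Smad7 in CD8 cells and of Itgae in myeloid cells, split by whether a cell had a UMI of Mki67 or Top2a, as CPM with exact Poisson 95% intervals, KO red and left of WT. In CD8 cells the levels of all 3 genes stand below those of other cells of the same library when cells cycle, and Itgae in myeloid cells shows KO above WT in cycling cells and below it in the others.

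In myeloid cells Itgae was a cDC1 gene. It had 22.5 CPM in KO and 25.6 CPM in WT myeloid cells, and cDC1 gave 460 of the 482 KO UMIs (95.4%) and 376 of the 406 WT UMIs (92.6%). Within cDC1 the level was 175 CPM in KO and 158 CPM in WT, a log2 ratio of 0.14 (-0.06 to 0.35). Macrophages held 3 Itgae UMIs in each library and monocytes 8 in each. The myeloid ratio was 0.79 (0.47 to 1.12) in cycling cells, where cDC1 were 20.3% of KO and 19.1% of WT cells. In the other myeloid cells it was -0.77 (-1.02 to -0.51), and cDC1 were 6.66% of KO and 8.54% of WT cells. Within cDC1 the ratio was 0.42 (0.09 to 0.75) in cycling and -0.06 (-0.32 to 0.20) in other cells, neither of which passed the rule. The cDC1 interval did not overlap those of the Treg and CD8 ratios.

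Itgb7, which encodes the beta subunit that pairs with CD103, did not pass the rule in any class. It had 207 CPM in KO and 225 CPM in WT Treg cells, and 60.4 CPM in KO and 87.2 CPM in WT CD8 cells, with log2 ratios of -0.12 (-0.30 to 0.06) and -0.53 (-0.64 to -0.42). Itga1, the alpha subunit of another integrin of tissue-resident T cells, was higher in KO CD4 conventional cells at 18.7 CPM, against 6.91 CPM in WT, a ratio of 1.43 (0.68 to 2.26). Resting cells were 21.1% of KO and 41.7% of WT CD4 conventional cells. Without resting cells the Itga1 ratio was 1.08 (0.21 to 2.06). A list of 3 NK genes summed to 82.1 CPM in KO and 54.5 CPM in WT CD4 conventional cells, with all 3 detected in both. The part of NK RNA in the Itga1 ratio was not tested. In CD4 conventional cells Itgae itself had only 25 UMIs in KO and 9 in WT (0.74, -0.41 to 2.02). In NK cells it had 1.85 CPM in KO and 1.79 CPM in WT (0.04, -1.06 to 1.21), with a UMI in 0.906% of KO and 0.935% of WT NK cells. In B cells, which should lack CD103, the shares were 1.19% in KO and 0.172% in WT, at medians of 3447 UMIs per cell in KO and 3329 in WT, beside 4568 in KO and 5116 in WT NK cells. In KO the NK share lay below the B-cell share and is not read as expression, with overlapping intervals of 0.547% to 1.41% in NK and 0.388% to 2.76% in B cells. In WT the NK share lay above it, with separate intervals of 0.468% to 1.67% in NK and 0.0632% to 0.374% in B cells.

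Tgfb1, the ligand gene, passed the rule in no class. Of the 5 classes it was highest in myeloid cells, at 249.7 CPM in KO and 266 CPM in WT, followed by Treg cells at 143 CPM in KO and 133 CPM in WT. NK cells came next with 105 CPM in KO and 111 CPM in WT, then CD8 cells with 85.8 CPM in KO and 79.5 CPM in WT and CD4 conventional cells with 72.6 CPM in KO and 74.5 CPM in WT. In KO all neighbours in this order had separate intervals. In WT the intervals of Treg and NK cells overlapped, as did those of CD8 and CD4 conventional cells. Ratios over the 5 classes ran from -0.09 to 0.11. Within the myeloid cells monocytes had 307 CPM in KO and 357 CPM in WT, and cDC1 the least of the 4 larger subclasses, 154 CPM in KO and 147 CPM in WT. Platelets also carry TGF-beta, and a list of 7 platelet genes summed to 248 CPM in KO and 513 CPM in WT myeloid cells with 6 genes detected in KO and 5 in WT. Gp1bb was at 0 in both. Macrophages had 724 CPM of this list in KO and 1370 CPM in WT, and Treg cells 1.05 CPM in KO and 5.05 CPM in WT. Whether its UMIs came from platelets or from macrophages, and the part of platelet RNA in Tgfb1, was not tested.

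Tgfbr1 (ENSMUSG00000007613, GRCm38 chromosome 4, 47353222 to 47414931, plus strand), the type I receptor gene, passed the rule in myeloid cells. KO myeloid cells had 13.0 CPM, from 280 UMIs in 228 of 1959 cells, and WT myeloid cells 20.1 CPM, from 320 UMIs in 230 of 1227 cells. The log2 ratio was -0.63 (-0.86 to -0.39). It was lower in KO monocytes, with 16.3 CPM against 28.0 CPM in WT (-0.78, -1.10 to -0.46), and in KO macrophages, with 12.8 CPM against 19.8 CPM in WT (-0.63, -1.10 to -0.17). In monocytes 3.39% of all measured genes were lower and 3.65% higher, and in macrophages 4.07% were lower and 2.23% higher. In cells thinned to 2000 UMIs neither call was kept, with ratios of -0.54 (-1.19 to 0.13) in monocytes and -0.79 (-2.36 to 0.76) in macrophages. Neither dendritic cell subclass passed the rule, at 20 KO and 15 WT UMIs in cDC1 and 14 KO and 19 WT UMIs in cDC2. The myeloid ratio ran from -0.74 to -0.53 over 9 alternatives and fell short of 1.5-fold with joint clusters (-0.53) and in thinned cells (-0.58). KO myeloid cells were also shallower, with a median of 9129 UMIs against 10705 in WT. RNA of other cells differed in the same sums: a list of 5 erythroid genes came to 193 CPM in KO and 733 CPM in WT myeloid cells with 5 of 5 detected in both, and to 5.87 CPM in KO and 892 CPM in WT monocytes with Alas2 at 0 in KO. In macrophages it came to 6.03 CPM in KO, with Alas2 again at 0, and 1340 CPM in WT. The platelet list summed to 69.8 CPM in KO and 197 CPM in WT monocytes, with 5 of 7 genes detected in KO and 4 of 7 in WT. In macrophages it came to 724 CPM in KO and 1370 CPM in WT, with 4 of 7 detected and Gp1bb and Gp6 at 0 in both. In Treg cells it was only 1.05 CPM in KO and 5.05 CPM in WT. Whether the UMIs of this list came from platelets or from the macrophages themselves was not tested. The part of this RNA in the Tgfbr1 ratios was not tested.

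In T and NK cells Tgfbr1 did not pass the rule. CD8 cells had 7.92 CPM in KO and 11.2 CPM in WT (-0.50, -0.81 to -0.18), and Treg cells 14.6 CPM in KO and 22.1 CPM in WT (-0.59, -1.23 to 0.06). The Treg interval spans no difference, at 56 KO and 35 WT UMIs. The ratio was 0.04 in CD4 conventional cells and 0.15 in NK cells. CD8 cells had the lowest level of the 5 classes in both libraries, and in KO their interval stood apart from that of every other class.

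Tgfbr2, the ligand-binding receptor, was highest in CD4 conventional cells, with 144 CPM in KO and 164 CPM in WT. NK and CD8 cells had similar levels to each other, 72.2 and 70.7 CPM in KO and 74.4 and 75.9 CPM in WT. Treg cells followed with 49.7 CPM in KO and 54.3 CPM in WT, and myeloid cells were lowest with 29.9 CPM in KO and 36.3 CPM in WT. CD4 conventional cells thus carried 2.91-fold the Treg level in KO and 3.02-fold in WT. The 5 ratios of KO over WT ran from -0.28 to -0.04, all below 0 and none past the rule.

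**Figure D4:**
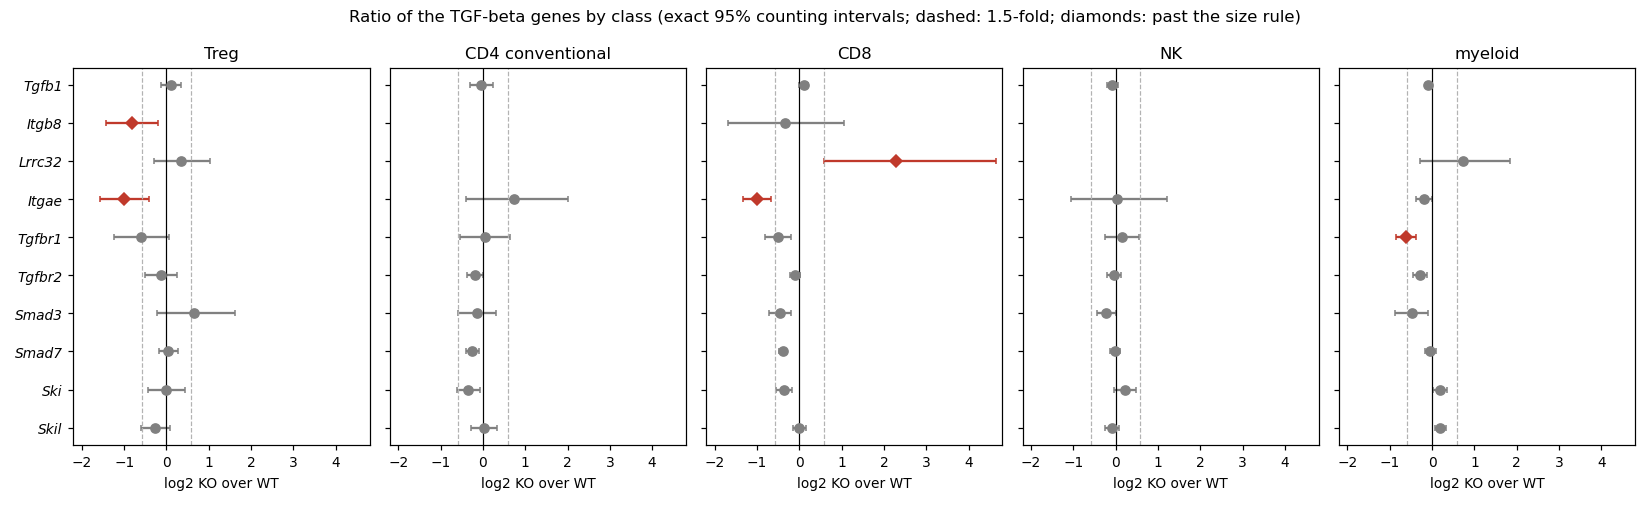
Log2 ratio of KO over WT for each member with at least 20 UMIs, by class, with exact 95% counting intervals; the solid line marks no difference and the dashed lines 1.5-fold either way, and red diamonds are members past the rule. Itgb8 and Itgae in Treg cells, Itgae in CD8 cells and Tgfbr1 in myeloid cells lie below the lower dashed line and Lrrc32 in CD8 cells above the upper one.

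Among the Smads, Smad3, which carries the receptor signal, was highest in NK cells with 36.9 CPM in KO and 43.2 CPM in WT and a ratio of -0.22 that did not pass. CD4 conventional cells had 24.7 CPM in KO and 27.3 CPM in WT. In Treg cells it had 13.9 CPM in KO and 8.84 CPM in WT, from 53 KO and 14 WT UMIs, with a ratio of 0.65 (-0.22 to 1.61). KO monocytes were lower, at 6.57 CPM against 10.9 CPM in WT (-0.72, -1.24 to -0.21), from 66 UMIs in each library. That call was kept under all 7 alternatives that recomputed the ratio with an interval. Joint clusters were not run for monocytes, and the ratio falls short of 2-fold.

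Smad7, the feedback inhibitor, passed the rule in no class and of the 5 classes was highest in CD4 conventional cells. CD4 conventional cells had 182 CPM in KO and 216 CPM in WT, and the interval in each library stood apart from that of the next of the 5. T cells with neither CD4 nor CD8 UMIs lay in the same range, at 194 CPM in KO and 209 CPM in WT, with intervals that overlap those of CD4 conventional cells. Treg cells had 154 CPM in KO and 149 CPM in WT, a ratio of 0.04 (-0.18 to 0.27), and NK cells 155 CPM in KO and 156 CPM in WT (-0.01, -0.12 to 0.10). The intervals of all 5 classes, which cover counting error only, lie wholly within 1.5-fold. CD8 cells had 114 CPM in KO and 149 CPM in WT (-0.39, -0.47 to -0.30), which misses 1.5-fold although the interval excludes no difference.

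Several CD8 ratios moved towards 0 when cycling cells were left out. The ratios of Smad7, Smad3, Ski and Tgfbr1 over all CD8 cells were -0.39, -0.46, -0.37 and -0.50, and none passed the rule. Without cycling cells they were -0.13 (-0.23 to -0.02), 0.02 (-0.30 to 0.34), -0.01 (-0.24 to 0.23) and -0.17 (-0.56 to 0.23). In cycling CD8 cells Smad3 had 5.82 CPM in KO and 10.1 CPM in WT (-0.80, -1.30 to -0.30), and Smad7 79.1 CPM in KO and 101 CPM in WT (-0.35, -0.50 to -0.21). Over all CD8 cells the median ratio of the 10 members was -0.36, beside 0.09 for all measured genes. The medians for the members and for all genes were -0.07 and 0.01 in Treg cells, -0.09 and 0.11 in CD4 conventional cells, -0.03 and 0.04 in NK cells, and -0.09 and -0.04 in myeloid cells. In CD4 conventional cells the ratios therefore stand against a general shift of 0.11.

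Ski and Skil, the corepressor genes, passed the rule in no class. Ski was highest in CD4 conventional cells with 61.1 CPM in KO and 77.6 CPM in WT (-0.34, -0.61 to -0.07). The Ski ratio was -0.49 (-0.96 to -0.02) in resting CD4 conventional cells and -0.15 (-0.50 to 0.22) in the others. Treg cells had 39.7 CPM in KO and 39.8 CPM in WT, and CD8 cells 22.0 CPM in KO and 28.4 CPM in WT. Skil was at 66.5 CPM in KO and 70.9 CPM in WT NK cells and at 58.8 CPM in KO and 70.7 CPM in WT Treg cells, with overlapping intervals in each library. Of the 5 classes CD8 cells had the lowest Skil level, 35.2 CPM in KO and 35.1 CPM in WT, and a ratio of 0.00 (-0.16 to 0.17). In myeloid cells both genes had small positive ratios, 0.19 (0.02 to 0.36) for Ski and 0.20 (0.06 to 0.34) for Skil, neither past the rule.

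Counts of the 33 other pathway genes past the rule stand beside the shares of all measured genes. In Treg cells 2.66% of all were higher and 2.78% lower, and in CD4 conventional cells 5.28% and 1.89%. In CD8 cells the shares were 6.79% higher and 4.41% lower, and in NK cells 2.24% and 1.63%. With 1 or 2 genes per class, the counts are not read as differing from these shares. In Treg cells 1 of 18 measured was higher and none lower. It was Furin, the protease that cleaves the TGF-beta precursor, at 33.7 CPM in KO and 17.7 CPM in WT (0.93, 0.33 to 1.58), a call not kept without cycling cells (0.62, -0.28 to 1.62) or in thinned cells (0.40, -0.73 to 1.67). Itgav, the partner of the Itgb8 subunit, had 71.4 CPM in KO and 72.6 CPM in WT Treg cells (-0.03, -0.34 to 0.30). In CD4 conventional cells 2 of 19 were higher, Itga1 as above and Nrros, which tethers latent TGF-beta on microglia and other myeloid cells, at 28.6 CPM in KO and 15.7 CPM in WT (0.86, 0.34 to 1.41), which was not kept without resting cells (0.63, -0.01 to 1.31) or in thinned cells (0.70, -0.16 to 1.63). In CD8 cells 2 of 23 were lower: the co-receptor gene Tgfbr3, with 37 KO and 46 WT UMIs (-1.19, -1.86 to -0.53), and Ldlrad4, an inhibitor of Smad activation, with 127 KO and 110 WT UMIs (-0.67, -1.05 to -0.29). Without cycling cells neither of these passed, at -0.52 for Tgfbr3 and -0.29 for Ldlrad4. Ldlrad4 also missed the rule without resting cells (-0.56) and in thinned cells (-0.37). In NK cells 1 of 21 was lower, Ltbp3, a latent TGF-beta binding protein, with 13 KO and 22 WT UMIs (-1.45, -2.56 to -0.40), a call not kept in thinned cells (-2.41, -5.75 to 0.07).

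In myeloid cells none of 27 measured pathway genes passed the rule, nor did any of 24 in monocytes or of 24 in macrophages. Of all measured genes 2.49% were higher and 4.07% lower in myeloid cells, 3.65% and 3.39% in monocytes, and 2.23% and 4.07% in macrophages. Thbs1, whose product thrombospondin can activate latent TGF-beta, was lower in KO cDC1, at 17.5 CPM against 74.3 CPM in WT (-2.09, -2.59 to -1.62). It was lower in KO cDC2 as well, at 26.4 CPM against 73.5 CPM in WT (-1.48, -1.92 to -1.05). In monocytes it had 564 CPM in KO and 818 CPM in WT, a ratio of -0.54 that did not reach 1.5-fold. In cDC1 Tgif1, a Smad corepressor, was lower at 6.45 CPM in KO, against 31.5 CPM in WT (-2.29, -3.14 to -1.51). With every cell weighted alike the Tgif1 ratio was -0.87, and in thinned cells it was -0.40 (-2.82 to 2.03). Smad2 was higher in KO cDC1 (0.62, 0.17 to 1.07) and lower in KO cDC2 (-0.67, -1.14 to -0.21).

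The other calls in dendritic cells rested on fewer UMIs. Cdh1, which encodes E-cadherin, the ligand of CD103, had 29 KO and 5 WT UMIs in cDC1 (2.39, 1.00 to 4.12). Smurf1, a ubiquitin ligase that acts on the receptors, had 26 KO and 10 WT UMIs there (1.23, 0.13 to 2.45). Pmepa1, an inhibitor of Smad activation, had 34 KO and 13 WT UMIs in cDC2 (1.29, 0.33 to 2.34). In all, 5 of 21 measured pathway genes passed in cDC1 and 3 of 22 in cDC2. Of all measured genes 4.75% were higher and 3.87% lower in cDC1, and 3.45% were higher and 3.66% lower in cDC2. Smad2 in cDC1 missed 1.5-fold with median-ratio scaling and with the highest doublet scores removed (0.55 in both), and Smurf1 missed the rule without cycling cells (1.14, -0.26 to 2.69). Cdh1 fell under the minimum of UMIs without cycling cells, at a ratio of 2.56 (0.75 to 4.98). Cells thinned to 2000 UMIs keep few UMIs of these genes, and several calls were not kept there. In cDC1 the thinned ratio was -1.40 (-2.95 to 0.01) for Thbs1 and 0.60 for Cdh1, with an interval that spans no difference, while Smad2 was called at 2.13 (0.58 to 4.12). Thbs1 in cDC1 was farther from 0 without cycling cells (-3.95, -5.61 to -2.67) and with the highest doublet scores removed (-3.50). In cDC2 it was -1.16 (-3.08 to 0.57) for Smad2 and 2.69 (-0.21 to 8.16) for Pmepa1, both farther from 0 than over all UMIs but with intervals that span no difference. RNA of macrophages differed in the same cells: a list of 6 macrophage genes summed to 1128 CPM in KO and 2767 CPM in WT cDC1, and to 2422 CPM in KO and 2143 CPM in WT cDC2, with 6 of 6 detected in each. The list of 7 platelet genes summed to 61.8 CPM in KO and 153 CPM in WT cDC1, with 3 genes detected in KO and 2 in WT. In cDC2 it came to 1.68 CPM in KO and 28.7 CPM in WT, with 2 detected in both. The part of macrophage or platelet RNA in the lower Thbs1 and Tgif1 was not tested.

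For each of the 3 surface molecules, the 3 genes most correlated with it across cell types were taken. Their correlations are high by that choice. Over 20 sums of 10 classes in both libraries, the pattern of Itgae on the log2(CPM + 1) scale was most like that of Fnbp1 (Pearson r = 0.89), Gnb4 (0.87) and Dctpp1 (0.87). Itgb8 was most like Neb (0.94), Apol9b (0.93) and Stc2 (0.93). Lrrc32 was most like Foxp3 (0.87), which the Treg gate itself uses, followed by Apol9b (0.86) and Gm29112 (0.85). The 20 points share 2 libraries and are not independent, so these values describe the sums and carry no test. Over all 20 sums Apol9b had only 105 UMIs, Gm29112 126 and Stc2 162, where at least 100 were required. At least 1 of Itgae, Itgb8 and Lrrc32 was counted in 31.0% of KO and 38.6% of WT Treg cells.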

How the data were processed

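Single-cell RNA was measured in 1 KO and 1 WT library. The deposited values are UMI counts, whole and not normalized, for each gene in each cell barcode. Per the file headers the matrices come from Cell Ranger 5.0.0, and Cell Ranger, STAR and mm10 are named per the submitters' processing notes. The annotation release was not given in the sources used here. Reads near the 3' end of a transcript are counted.

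Barcodes were kept as cells when they had 500 genes or more, 1000 UMIs or more and no more than 10% mitochondrial UMIs: 11131 of 11398 KO barcodes (median 6360 UMIs) and 11153 of 11432 WT barcodes (median 5191). Classes were gated on UMIs of marker genes. T cells needed 2 UMIs of CD3 genes, B cells 2 of 4 markers, NK cells 2 of 6 without CD3, and myeloid cells 3 of 16. CD4 and CD8 cells carried UMIs of 1 coreceptor only. Treg cells needed 3 of Foxp3, Ikzf2, Il2ra, Ctla4 and Tnfrsf18, and CD4 conventional cells had no Foxp3 UMI. Resting cells needed UMIs of 2 of 4 markers of resting T cells and no Gzmk, Gzmb or Pdcd1. Cells passing the gates of 2 lineages, 1361 KO and 1611 WT, were set aside, which also removes doublets between lineages. Scrublet called 0 KO cells and so had not worked there, against 355 WT cells (3.18%); removing the highest scores from each library was an alternative.

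UMIs were summed per library and class and scaled to CPM. Shares have exact Clopper-Pearson intervals, and a count of 0 allows up to 3 counts. With 1 library per genotype cells are not replicates and no test was made. The 10 members, the 33 pathway genes and the rules were chosen with earlier results of these data known; 1 further gene of the pathway list is not reported here. Named genes were all members, the pathway genes past the size rule, and the 3 genes most like Itgae, Itgb8 and Lrrc32 with at least 100 UMIs. Itgb7, Itgav and the levels of cycling cells were chosen after their values were seen. The size rule was run on simulated Poisson counts drawn from WT class profiles. These follow the counting model of the interval and hold no variation between cells or mice, so they cannot show how the rule fares with either. Coordinates are from a GENCODE annotation of GRCm38 matched by gene ID. Alternatives covered the Treg gate, joint clusters, doublets, thinning, cell filters, scaling, weight of cells, single cells, resting and cycling cells, the UMI minimum and the fold. Python 3.11.15, numpy 2.4.6, scipy 1.17.1, pandas 2.3.3, scanpy 1.11.5 and igraph 0.11.9 were used.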

Additional observations from a re-analysis of the deposited data

How the results depend on the processing

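No paired analysis was possible because each genotype holds 1 library. No replicate was left out for the same reason. Of 836 ratios recomputed under an alternative, 769 moved by less than their counting interval and 67 by more, and no called ratio changed sign.

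The count of lower members in Treg cells, 2, was 1 with a Foxp3 UMI required, with joint clusters, in cells thinned to 2000 UMIs and without cycling cells, and 0 at 2-fold. In CD8 cells the 1 higher member (Lrrc32) became 0 with joint clusters, thinned, without resting cells, without cycling cells and at 50 UMIs. The 1 lower member (Itgae) became 0 thinned, without cycling cells and at 2-fold, and 2 with median-ratio scaling and without resting cells. In myeloid cells the 1 lower member (Tgfbr1) became 0 with joint clusters and at 2-fold, and 3 without cycling cells; thinned, the 1 was Smad3 (-1.06) and not Tgfbr1. In CD4 conventional cells, with none in the main setting, 1 member was higher with a Foxp3 UMI required for Treg cells and 1 was lower with joint clusters. NK cells kept 0 under every alternative run.

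Of pathway genes, the 1 higher in Treg cells became 2 with a gate without Foxp3, with joint clusters, without resting cells and without the cell with most UMIs, and 0 without cycling cells and at 2-fold; 1 was lower without cycling cells, against 0. In CD4 conventional cells the 2 higher became 1 without resting cells and at 2-fold, and the 0 lower became 2 with a Foxp3 UMI required and with median-ratio scaling, and 1 with joint clusters and without resting cells. In CD8 cells 0 higher became 1 thinned and 2 without cycling cells, and 2 lower became 1 thinned and at 2-fold and 0 without cycling cells. In NK cells 0 higher became 1 without cycling cells and 1 lower became 0 thinned and at 50 UMIs. In myeloid cells 0 higher became 1 thinned. The counts of higher genes in thinned Treg cells (1) and CD4 conventional cells (2) do not hold Furin or Nrros, whose calls were lost there. The cause was not tested. Treg cells limit the depth: Itgb8 and Itgae rest on 41 to 57 UMIs per library.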

Other observations

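B cells and T cells with neither CD4 nor CD8 UMIs were outside the 5 classes, and their levels are given as values with exact Poisson 95% intervals. KO B cells had Tgfb1 at 101 CPM (87.9 to 116), against 138 CPM (132 to 145) in WT B cells. Tgfbr2, the ligand-binding receptor gene, had 91.3 CPM (78.6 to 106) in KO and 139.6 CPM (133 to 146) in WT B cells, and Smad7 111 CPM (97.1 to 127) in KO and 155 CPM (148 to 162) in WT. Skil ran the other way, with 71.0 CPM (59.8 to 83.6) in KO and 48.8 CPM (45.0 to 52.9) in WT. These sums held 420 KO and 3485 WT B cells. They also differed in genes outside the pathway: Ly6c2 was at 297 CPM in KO and 12.7 CPM in WT, and Cd79a at 2129 CPM in KO and 2747 CPM in WT. Whether the 2 sums hold like B cells was not tested. The T cells with neither coreceptor also held Foxp3 UMIs, as given above. In them Itgae had 9.84 CPM (7.81 to 12.3) in KO and 14.0 CPM (11.1 to 17.3) in WT, and Lrrc32 5.66 CPM (4.14 to 7.55) in KO and 4.99 CPM (3.37 to 7.12) in WT. Smad7 there had 194 CPM (185 to 204) in KO and 209 CPM (197 to 221) in WT, and Tgfbr2 106 CPM (99.2 to 114) in KO and 105 CPM (96.6 to 113) in WT.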
